A study of Mus musculus with 112 samples.

Results

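The 10 genes described here are the aryl hydrocarbon receptor (AhR) pathway genes Ahr, Arnt, Ahrr, Cyp1a1, Cyp1a2, Cyp1b1 and Tiparp, with F2rl3, Gfi1 and Myo1g, the mouse counterparts of genes known from blood methylation studies of human smokers. They are defined by these known roles, out of 55413 genes annotated on mm10 (GENCODE vM21), and no measured value enters the definition. Every CpG position from 2000 bp upstream of the gene's start to its end was taken, which gave 1289 of the 4388579 positions in the deposited tables. These 1289 are 19.8% of the 6512 CpG cytosines that the reference genome holds in those windows. Tiparp held 337 of the positions, Gfi1 300, Ahr 132, Ahrr 120, Cyp1b1 113, Arnt 109, Myo1g 65, Cyp1a1 55, Cyp1a2 49 and F2rl3 9.

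Reduced representation bisulfite sequencing (RRBS) reads cytosine methylation in fragments cut at CpG-containing restriction sites. It was done on 112 samples of male mice in 13 groups. The question was whether cigarette smoke (CS) alters DNA methylation (DNAme) in exposed fathers and in their sons. F0 sperm came from C57BL/6J wild-type (WT) controls (n = 10), CS-exposed WT mice (n = 9), WT mice left to recover from the same exposure for 3 successively longer times (recovery 1, n = 9; recovery 2, n = 10; recovery 3, n = 10), control Nrf2-/- mice (n = 10) and CS-exposed Nrf2-/- mice (n = 9). Nrf2, the transcription factor that drives antioxidant defence, was absent throughout the body of the Nrf2-/- mice from birth, since the allele is a germline knockout. F1 sperm came from sons of control (n = 6) and CS-exposed (n = 7) WT sires, and F1 prefrontal cortex, called F1 brain here, from sons of control WT, CS-exposed WT, control Nrf2-/- and CS-exposed Nrf2-/- sires (n = 8 each). All sons had CAST/EiJ mothers that were not exposed, so the sons of Nrf2-/- sires are heterozygous for the knockout. The recovery mice were older at collection than the controls, which were collected with the exposed mice, so age and recovery cannot be told apart. Each library comes from a single animal, but whether a son gave both a brain and a sperm library is not stated. The labels do not say which sons share a sire or litter, so the tests treat sons as independent. A table's columns are named by facility number and not by sample, so columns were assigned to a group and are called here by their order in its table. The prefix of the facility number differs between F0 sperm, F1 sperm and F1 brain. A control WT-sired brain sample carries the Nrf2-/- strain label and was placed by its title.

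The AhR is a transcription factor that binds polycyclic aromatic hydrocarbons and dioxins, which tobacco smoke carries. The ligand-bound receptor enters the nucleus, pairs with ARNT and binds xenobiotic response elements (XREs), whose core is the pentamer GCGTG. It switches on the cytochrome P450 genes of the CYP1 family, which oxidise the ligands, and AHRR and TIPARP, which damp the response. In blood of human smokers, low DNAme in an AHRR intron and at F2RL3 and GFI1 is a widely used mark of exposure, and DNAme at MYO1G and CYP1A1 changes as well. An XRE core holds a CpG, so the DNAme of the element itself can be read by RRBS.

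The sequences below are those on which the results turn, on mm10 and written 5′ to 3′ on the strand of the gene. The first 3 are the CpG-dense stretches of Cyp1a1 (chr9:57696323-57696416 and chr9:57696533-57696638, forward strand) and Ahrr (chr13:74260018-74260289, reverse strand) in which XRE cores were covered, and their capitals mark the core on either strand, GCGTG or CACGC.
Cyp1a1 upstream cluster, distal part: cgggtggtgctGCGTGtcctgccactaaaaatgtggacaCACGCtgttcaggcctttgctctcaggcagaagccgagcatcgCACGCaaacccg
Cyp1a1 upstream cluster, proximal part: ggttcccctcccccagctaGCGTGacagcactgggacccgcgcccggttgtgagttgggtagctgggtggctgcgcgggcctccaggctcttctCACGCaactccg
Ahrr internal CpG-dense region: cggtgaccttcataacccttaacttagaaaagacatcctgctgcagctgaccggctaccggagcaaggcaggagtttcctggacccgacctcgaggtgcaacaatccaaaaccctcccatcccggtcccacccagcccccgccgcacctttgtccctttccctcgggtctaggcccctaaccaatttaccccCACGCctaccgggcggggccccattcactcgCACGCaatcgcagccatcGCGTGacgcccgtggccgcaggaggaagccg
The other 2 sequences, in Cyp1a2 (chr9:57681813-57681902, reverse strand, coding sequence) and Ahrr (chr13:74291382-74291522, reverse strand, intron), were the stretches whose level differed most between F0 sperm and F1 brain, and their capitals mark each CpG.
Cyp1a2 coding-sequence region: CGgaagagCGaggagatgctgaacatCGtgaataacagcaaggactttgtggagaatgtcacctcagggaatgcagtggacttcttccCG
Ahrr intron region: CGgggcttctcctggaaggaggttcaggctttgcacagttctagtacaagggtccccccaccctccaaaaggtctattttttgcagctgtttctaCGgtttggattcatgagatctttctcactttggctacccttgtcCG
The Cyp1a2 stretch holds only 4 CpGs in 90 bases and the Ahrr intron stretch 3 in 141 bases, against 7 in 94 bases and 8 in 106 bases in the 2 parts of the Cyp1a1 cluster.

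A cytosine was scored where at least 4 libraries of every group of a tissue had a value. By that rule F0 sperm had 431 scored member cytosines, F1 sperm 222 and F1 brain 541, with 198 shared by all 13 groups. Scored cytosines no more than 100 bp apart were joined into regions of at least 3 cytosines and over 50 bp, and a library's level is the mean percent methylation of a region's cytosines. Where a library lacked some of them, its mean deviation over those it had was added to the region's mean over all groups fitted together. These are all groups of a tissue, or of both sides where tissues or generations were compared. The level of such a library thus depends on the fit it enters, also through groups that are not compared. The members then had 22 regions for F0 sperm, 16 for F1 sperm and 25 for F1 brain. Of F2rl3, 9 positions were read, only 1 was scored and only in F1 sperm, so it has no region.

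The libraries held between 510212 positions with a value (an F1 sperm library) and 1855546 (an F0 sperm library), and the number of reads behind a value is unknown. At the starts of 6 genes imprinted from the mother, whose control regions are unmethylated in sperm, F0 sperm libraries averaged 0.0764% to 3.75%. The highest was control WT column 1. F1 sperm libraries averaged 0% to 4.17% over 5 of these starts, and brain libraries 9.32% to 28.2% over the 6. The mean of the starts was thus low in all sperm libraries. At Plagl1 and Grb10 the median brain library was low as well, at 2.44% and 7.44%. The lowest brain library mean was that of CS-exposed WT sires' column 8, at 9.32%. Next came columns 2, 4, 5 and 6 of the CS-exposed Nrf2-/- sires, at 10.6%, 11.6%, 13.1% and 15.1%. All other brain libraries were at 17.8% or higher. These low brain means thus lay in CS-exposed groups, and their cause was not tested. Of the 67 F0 libraries, control WT column 1 was highest at cytosines under 10%, with 2.18% over member cytosines (median library 0.737%) and 2.14% over all such cytosines (median 1.10%). It is a member of every comparison with control WT.

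Most of the members' scored cytosines were unmethylated. In F0 sperm 83.3% of them lay under 10%, against 58.4% of all scored cytosines, and the median was 0.510% against 2.20%. In F1 sperm the share under 10% was 79.3% against 46.7%, and in F1 brain 83.4% against 51.3%. The shares over 80% were, in the same order, 14.6%, 12.2% and 13.1%, against 31.7%, 30.9% and 26.4%. Pooled over the genes that had any, scored cytosines thus lay at low DNAme more often than in the covered genome. Tiparp held 143 of the 431 in F0 sperm and 182 of the 541 in brain, while the F0 sperm medians of Cyp1a2 (89.7%) and Myo1g (95.3%) were high.

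Ahr, the receptor (chr12:35497974-35535038, reverse strand), was almost free of DNAme at its start. Its region over the first exon (chr12:35534842-35535050, 29 cytosines, 5′ UTR and flank) averaged 0.43% in F0 sperm and 0.64% in F1 brain, and the neighbouring exonic region (chr12:35534573-35534658) 0.49% and 0.65%. Away from the start, 4 scored cytosines in an intron, picked out after their values were seen, stood apart. The cytosines at 35532468 and 35532496 averaged 92.2% and 90.8% over F0 sperm libraries but 16.3% and 12.3% over F1 brain libraries, while those at 35532718 and 35532764 averaged 89.0% and 84.6% in F0 sperm and 76.8% and 67.3% in brain. In F1 sperm only 4 libraries read these cytosines, too few to be scored, and there the first pair averaged 13.4% at each cytosine and the second pair 38.3% and 35.2%, below both F0 sperm and brain. The first pair was thus high in F0 sperm and low in both F1 tissues. Generation, mother's strain and facility prefix cannot be told apart there, and whether the CAST/EiJ sequence differs was not examined.

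Arnt, the nuclear partner of the receptor (chr3:95434388-95497240, forward strand), was low on both sides of its start. The region ending at -135 bp from the start (chr3:95434191-95434253) averaged 2.00% in F0 sperm and 2.31% in F1 brain, and the region from 144 bp inside the gene (chr3:95434532-95434648) 0.86% and 0.93%. Of the gene-body cytosines, the one at 95443941 was near full DNAme, at 96.5% in F0 sperm and 96.3% in brain. The cytosine at 95477747, also chosen after its value was seen, was at 95.8% in F0 sperm and at 51.9% and 49.5% in sperm and brain of the F1 generation. Its level thus split by generation and not by tissue. Mother's strain and facility prefix cannot be told apart from generation there, and whether the CAST/EiJ sequence differs was not examined.

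Ahrr, the repressor that competes with the receptor for ARNT (chr13:74211118-74292331, reverse strand), was scored in 4 F0 regions, with means of 0.94%, 0.98%, 11.8% and 96.7%. The region at -131 bp from the start (chr13:74292462-74292542) averaged 0.98% in F0 sperm and 5.76% in F1 brain. The XRE-bearing region 32042 bp inside the gene (chr13:74260018-74260289), 383 bp downstream of the start of the transcript Ahrr-204, averaged 0.94% in F0 sperm and 1.26% in brain, and a neighbour 35549 bp from the gene start (chr13:74256674-74256782) 96.7% and 93.0%. The intron region 809 bp from the start, printed above, was low in F0 sperm and high in brain. In control WT F0 sperm it ranged from 8.33% to 19.6% (median 12%, n = 9), and in CS-exposed WT F0 sperm from 7.02% to 25% (median 16.1%, n = 8). In F1 brain of control WT sires it ranged from 85.2% to 100% (median 94.7%, n = 8). No F0 sperm library of any group came near the lowest brain library, since F0 group means were 7.99% to 15.7% and brain group means 92.0% to 93.8%. This region could not be tested within the F1 generation: in F1 sperm only single cytosines of it were scored, with means of 47.01% at 74291382 and 29.96% at 74291426.

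Cyp1a1, the inducible P450 that is the classical readout of AhR activity (chr9:57687928-57703824, forward strand), was scored upstream of its main transcript Cyp1a1-201, in an intron of a longer transcript of the gene. The 3 regions, at -1197 bp (chr9:57696323-57696416), -975 bp (chr9:57696577-57696638) and -329 bp (chr9:57697193-57697284) from the start of Cyp1a1-201, averaged 1.64%, 0.85% and 2.88% in F0 sperm. In F1 brain the first averaged 2.76% and the last 8.65%. All 3 were low in both tissues.

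Cyp1a2, the neighbouring P450 of liver that is transcribed away from Cyp1a1 (chr9:57676937-57683703, reverse strand), carried the largest tissue difference of the 10 genes. Its coding region 1801 bp from the gene start, printed above and 134 bp inside the nearest annotated transcript, averaged 4.88% and 5.10% in F0 and F1 sperm but 90.2% in F1 brain. All 4 cytosines showed it, with means of 1.30%, 0.38%, 16.1% and 1.70% in F0 sperm and of 94.7%, 78.2%, 94.6% and 93.2% in brain. At the other end of the gene, the region from 6247 bp (chr9:57677203-57677456, coding sequence and 3′ UTR, 14 cytosines) averaged 87.7% in F0 sperm and 88.4% in brain.

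**Figure D1:**
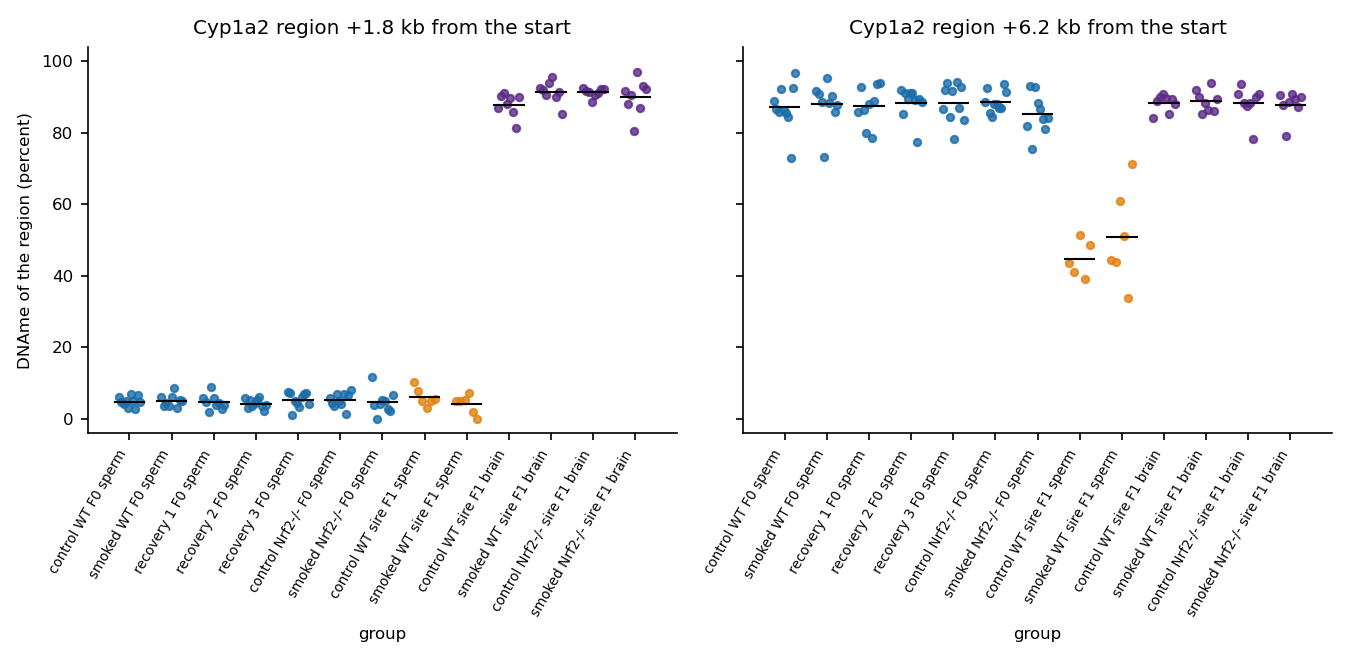
Percent methylation of every library (points, with a line at the group mean) in the 13 groups at the Cyp1a2 regions 1801 bp and 6247 bp from the gene start, each scored on the cytosines that qualified in that tissue and generation. At the first region F0 group means lie between 4.27% and 5.32% and brain group means between 87.9% and 91.4%, and at the second F1 sperm lies below the other groups.

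Cyp1b1, the P450 of tissues outside the liver (chr17:79701537-79715061, reverse strand), formed a region only over its coding exon, where that at 1272 bp (chr17:79713152-79713789, 55 cytosines) averaged 0.63% in F0 sperm. Tiparp, the ADP-ribosyltransferase that feeds back on the receptor (chr3:65528410-65555518, forward strand), averaged 0.44% over its start (chr3:65528045-65528614, 53 cytosines) and 0.64% in the first intron (chr3:65528748-65529458, 84 cytosines) in F0 sperm, and 0.87% in that intron in brain. Both genes were unmethylated wherever they formed a region.

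Gfi1, a transcriptional repressor of blood cell development (chr5:107716657-107726036, reverse strand), was low at all its F0 regions: 0.56% at -307 bp from the start (chr5:107726343-107726512), 0.52% in the intron (chr5:107723508-107723704) and 1.32% in the coding exon (chr5:107723208-107723381). In brain these averaged 1.46%, 2.05% and 2.34%. Myo1g, an unconventional myosin of lymphocytes (chr11:6506548-6520965, reverse strand), was the reverse, with 22 of 22 scored cytosines over 80% in F0 sperm. Its 3 regions, all in coding exons, averaged 95.9% (chr11:6517905-6517981), 95.9% (chr11:6511495-6511566) and 94.4% (chr11:6507897-6507955) in F0 sperm. F2rl3, the thrombin receptor PAR4 (chr8:72761880-72763874, forward strand), had 1 scored cytosine in F1 sperm, at -147 bp from the start, which averaged 68.8% ± 18.5 (SD, n = 10) and ranged from 37.5% to 100%.

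**Figure D2:**
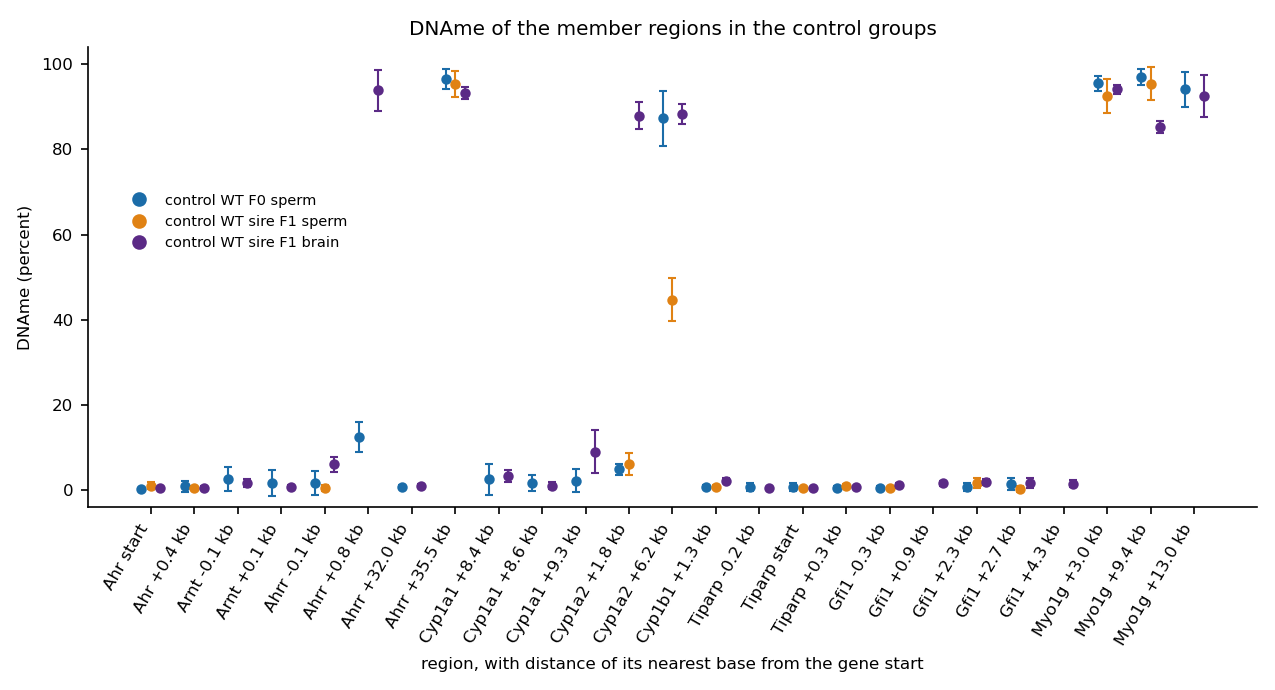
Mean percent methylation (points) with SD over libraries (bars) of each member region, labelled by its distance from the gene start in kb, in control WT F0 sperm and in F1 sperm and F1 brain of control WT sires. Most regions lie near 0 in all 3 tissues, the Myo1g regions lie near the top, the Cyp1a2 region nearer the gene start separates both sperm tissues from brain, and the Ahrr intron region nearest the start, which has no F1 sperm value, separates F0 sperm from F1 brain.

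The pentamer GCGTG was searched on both strands of the 10 windows, without overlap with any other motif being considered, and 190 matches were found, of which 15 had a scored CpG (19 cytosines). In F0 sperm 16 of 17 scored core cytosines were under 10%, in F1 sperm 4 of 5 and in F1 brain 15 of 16. Over all scored core cytosines of the genome, 69.6%, 56.1% and 59.6% were under 10%. The exception in each tissue was the Cyp1a2 cytosine at 57677241, which averaged 90.8% and 50.4% in F0 and F1 sperm and 95.8% in brain. Within 1000 bp of a gene start, the Ahr core cytosines at 35534953, 35534955 and 35534991 averaged 0.241%, 0.118% and 0% in F0 sperm and 0.174%, 0.270% and 0% in brain. The Tiparp core cytosines at 65528279, 65528280, 65528593 and 65528594 were at no more than 1.79% where scored, and the Gfi1 core cytosine at 107725193 was at 0.276% in F0 sperm and 2.36% in brain. Cyp1a1 core cytosines averaged 0.146% to 2.85% in F0 sperm and 0% to 4.21% in brain, and the 5 of Ahrr 0.0672% to 0.796% and 0.170% to 0.486%. As a description of how common the letters are, the core stood in 6 of 22 member regions of F0 sperm and in 20.6% of all 62831 regions, and in 32.4% of 32851 RefSeq promoters of 300 bases (GRCm38.p6). A match of these letters does not show a bound site.

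**Figure D3:**
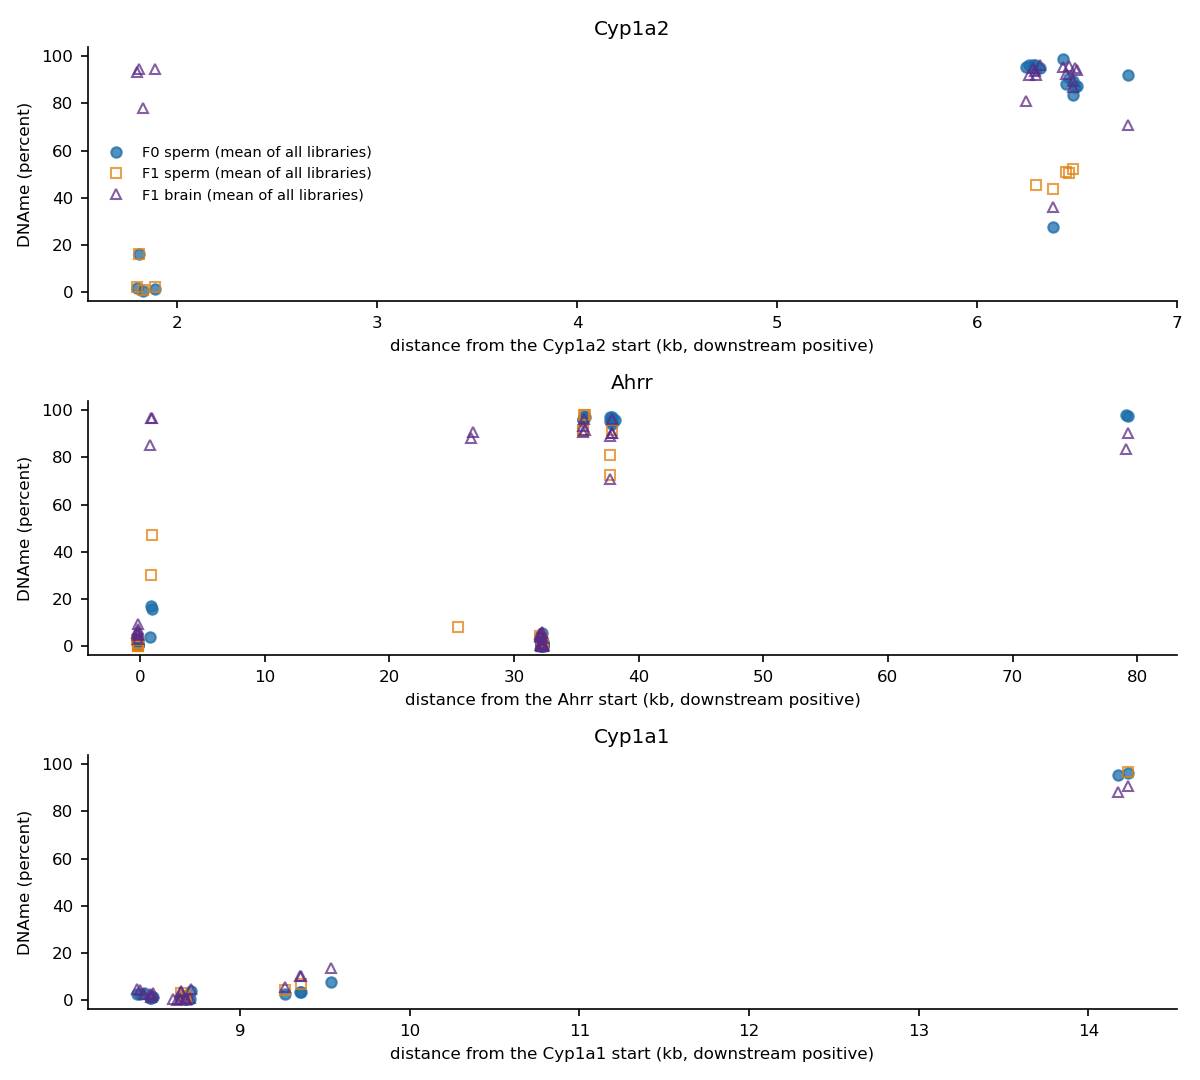
Mean percent methylation of each scored cytosine over all libraries of F0 sperm, F1 sperm and F1 brain, against its distance in kb from the gene start, along Cyp1a2, Ahrr and Cyp1a1. Sperm and brain part at the Cyp1a2 cytosines near 1801 bp and the Ahrr cytosines near 809 bp, and the Cyp1a1 cytosines upstream of Cyp1a1-201 lie near 0 in both.

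CS exposure was compared first, CS-exposed WT against control WT F0 sperm, with limma over all 62831 regions. No member region was called at an adjusted p under 0.05 (0 of 22, and 0 at an unadjusted p under 0.05), where 0.00159% of all regions were called (1 region) and 3.92% had an unadjusted p under 0.05. The median difference over the members was -0.07 percentage points, against -0.15 over all regions. The 95% interval of the difference lay within 5 percentage points of 0 in 19 of 22 member regions, as it did in 76.3% of all regions. The level bears on this count, since a region near 0 cannot lose 5 points. All 16 member regions with a mean under 5% were within, as were 97.2% of all such regions, but only 3 of the 6 at higher levels, against 56.7% of all.

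At the Cyp1a1 region at -1197 bp, the member region with the smallest p here, control WT libraries ranged from 0.73% to 12.7% (median 1.14%, n = 10) and CS-exposed libraries from 0% to 2.57% (median 0.73%, n = 9). The groups overlapped, and the single library at 12.7% was control WT column 1. The difference was -1.66 ± 0.93 points (SE, limma p = 0.0776, adjusted p = 1.00), and without that library -0.54 points (limma p = 0.447). Here and below, a difference given without a named library leaves out the one whose removal moved it furthest towards or past 0. At the Ahrr intron region, whose match to the AHRR positions used in human blood was not examined, the mean was 15.7% in CS-exposed and 12.6% in control sperm, a difference of 3.10 ± 3.53 points with an interval from -3.99 to 10.2. That interval is the widest upward bound of any member region in this comparison. Without CS-exposed column 1 it was 1.77 points. The region at the Ahrr start differed by -0.28 points, that of Arnt from 144 bp by -0.90 and that over the Tiparp start by -0.35, all with groups that overlapped. These 3 rested on control WT column 1, without which they were 0.52, 0.03 and -0.18 points, so the first 2 turned direction. The Arnt region at -135 bp differed by -0.77 points (-0.08 without control WT column 9), that over the Ahr start by 0.24 (0.12 without CS-exposed column 7) and that at Gfi1 -307 bp by 0.44 (0.08 without CS-exposed column 7). Cyp1b1 differed by -0.08 ± 0.18 points, and the Cyp1a2 coding region, at 5.11% against 4.86%, by 0.25 ± 0.93 points (interval -1.61 to 2.11), and both turned direction without a single library (0.03 and -0.20 points, without control WT column 6 and CS-exposed column 6). No scored member cytosine was called either (0 of 431, 28 at an unadjusted p under 0.05), where 0.000586% of all cytosines were called and 4.73% had an unadjusted p under 0.05. The smallest p was at Tiparp 65528248, at 0% in 7 exposed and 4.22% in 5 control libraries (limma p = 0.000709, adjusted p = 0.945). The same cytosine had the smallest p in 5 of the 6 comparisons made with control WT, which share those control libraries.

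**Figure D4:**
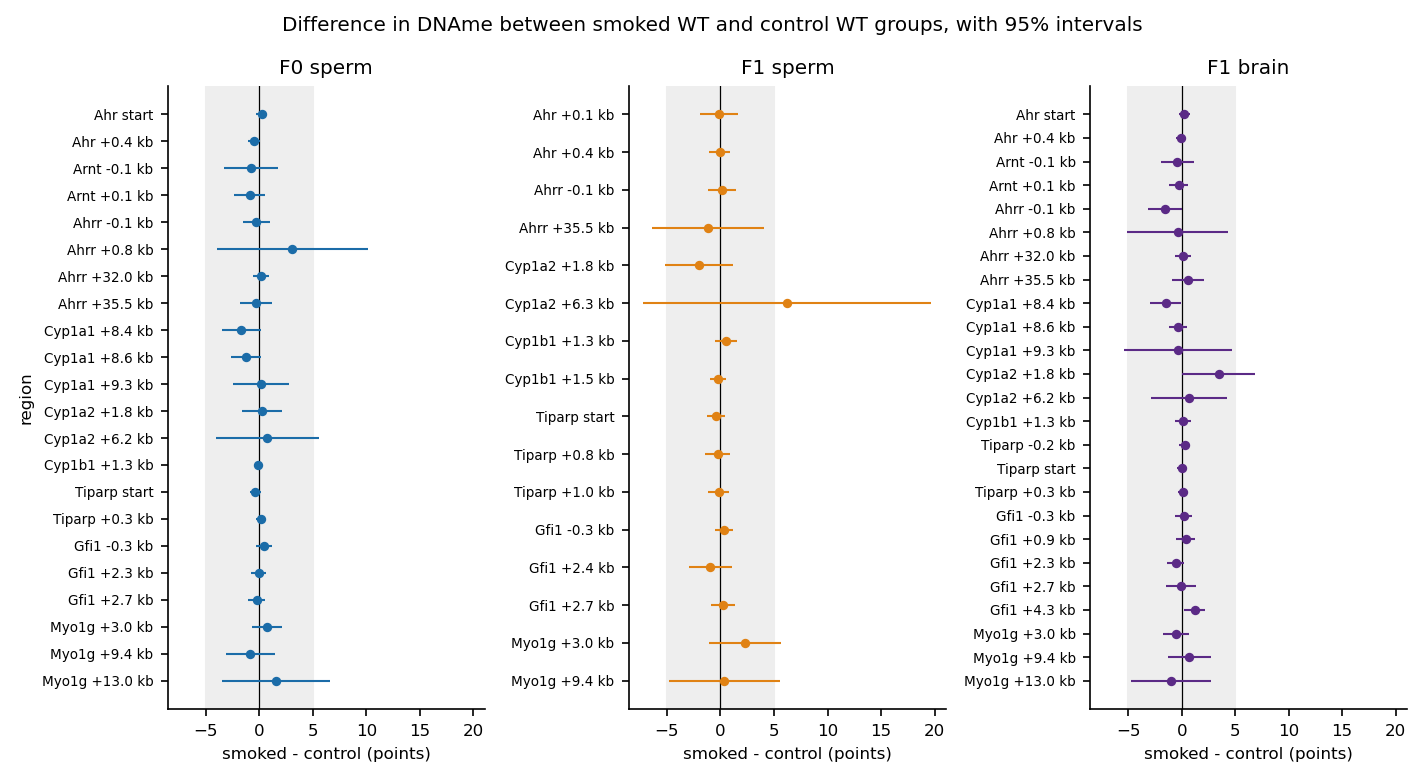
Difference in percent methylation between CS-exposed WT and control WT (points, with 95% intervals) for each member region in the sperm of the mice themselves (F0) and in sperm and brain of sons (F1), with a grey band at 5 percentage points on either side of 0. Nearly all intervals cross 0, and the widest, at the Cyp1a2 region from 6296 bp in F1 sperm, runs from -7.20 to 19.7.

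The recovery groups asked whether sperm DNAme differed from control WT after exposure had ended. No member region was called in any of them (0 of 22 each by limma), where 0%, 0.00637% and 0.043% of all regions were called in recovery 1, 2 and 3. At an unadjusted p under 0.05 there were 1, 3 and 1 member regions, against 5.28%, 4.17% and 6.3% of all regions. The largest of these was at the Cyp1a1 region at -329 bp. Control WT libraries there ranged from 0% to 7.78% (median 1.28%, n = 10) and recovery 1 libraries from 1.09% to 16.3% (median 5.08%, n = 9). Of the recovery 1 libraries 8 of 9 lay above the control median, though the groups overlapped. The difference was 3.63 ± 1.32 points (interval 0.99 to 6.27, limma p = 0.00785, adjusted p = 0.897), and 2.34 points without recovery 1 column 2, the library at 16.3% (limma p = 0.0563). With each library left out in turn it ran from 2.34 to 4.24 points. In recovery 2 the Ahr exonic region was at 0.185% against 0.886% (-0.70 ± 0.28 points, limma p = 0.0166, adjusted p = 1.00), and the difference was -0.37 points without control WT column 6 (limma p = 0.111). The other recovery 2 regions were that of Cyp1a1 at -975 bp (-1.48 points, and -0.97 without control WT column 7) and that of the Ahrr start (-1.27 points, and -0.48 without control WT column 1). The recovery 3 region was the Tiparp start (-0.55 points, limma p = 0.024, adjusted p = 0.749). Without control WT column 1 the Tiparp difference was -0.38 points (limma p = 0.0992).

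Loss of Nrf2 was compared next. Control Nrf2-/- against control WT called 0 of 22 member regions, and 0 at an unadjusted p under 0.05, against 0.409% (257 regions) and 7.81% of all regions. Nrf2-/- F0 libraries carry lower facility numbers than all WT F0 libraries, so genotype and the order of these numbers cannot be told apart. The smallest member p was at the Arnt region from 144 bp, at -1.37 points (limma p = 0.0549, adjusted p = 0.650), and at -0.44 without control WT column 1. CS-exposed Nrf2-/- against control WT called 0 of 22 (0.358% of all regions), with 2 at an unadjusted p under 0.05 (7.88% of all). These were Myo1g at 6511495, at 94.6% against 97.0% (-2.36 ± 1.15 points, limma p = 0.0436, adjusted p = 0.616), and the Ahr exonic region (-0.60 points, and -0.27 without control WT column 6). The Myo1g difference was -1.75 points without CS-exposed Nrf2-/- column 6 (limma p = 0.133). CS-exposed against control Nrf2-/- called 0 of 22 (0.00637% of all regions), and 0 at an unadjusted p under 0.05, with the smallest p again at Myo1g 6511495 (-2.13 points, limma p = 0.0672, and -1.53 without CS-exposed Nrf2-/- column 6). The test of whether the smoke difference itself differed between genotypes called no region at all (0% of all). Its smallest member p was at Cyp1a1 -1197 bp, at 2.27 points (limma p = 0.0882, adjusted p = 1.00) and 1.14 without control WT column 1. The interval of that difference of differences lay within 5 points of 0 in 18 of 22 member regions, against 62.9% of all.

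In F1 sperm, sons of CS-exposed WT sires were set against sons of control WT sires. None of the 16 member regions was called (0% of all 33449 regions), and 0 had an unadjusted p under 0.05, against 5.38% of all. The 95% interval lay within 5 points of 0 in 11 of 11 member regions with a mean under 5% (93.3% of all such regions). At higher levels it did so in 0 of 5 (16.4%). The Cyp1a2 region from 6296 bp (chr9:57677219-57677407, 5 cytosines) had the largest difference. Sons of control sires were at 43.5%, 41.1%, 51.4%, 39.1% and 48.5%, and sons of exposed sires at 44.5%, 43.9%, 60.9%, 51.3%, 33.9% and 71.4%. The exposed group held both the lowest and the highest library, and the difference of 6.25 ± 6.05 points had an interval from -7.20 to 19.7 (limma p = 0.325). It was also the only member region to pass a rule by size alone, a change of over 5 points in the region's mean and in at least 33% of its cytosines, which 13.1% of all F1 sperm regions passed. The rule counts a cytosine's change in either direction. A single cytosine of the 5, at 57677321, differed by 45.6 points against 6.25 for the region, so it weighs heavily in the region's difference. Some of the library levels, the highest and the lowest among them, were filled in for missing cytosines, and over the libraries with all 5 cytosines the difference was 2.33 points (3 control libraries at 47.8%). Without the library at 71.4% the mean of the exposed group was 46.9%, and the difference of 2.17 points was under that size. The smallest p was at Myo1g 6517905, at 94.8% against 92.5% (2.32 ± 1.55 points, limma p = 0.160), and the difference was 0.936 points without control WT-sired column 2 (limma p = 0.396).

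Inside this Cyp1a2 region a single cytosine, at 57677321 in the coding sequence, had the smallest p of the 222 member cytosines. Sons of exposed sires were at 60%, 75%, 50%, 50%, 72.7% and 62.5%, and sons of control sires at 24%, 17.4%, 18.2% and 5%. The groups did not overlap, and the difference was 45.6 ± 6.15 points (limma p = 5.75e-05, adjusted p = 0.401), so it was not called, where 0.00135% of all F1 sperm cytosines were. In F0 sperm the same cytosine was at 24.8% ± 19.7 (SD, n = 9) in control WT and 35.5% ± 13.8 (n = 8) in CS-exposed WT, with control libraries from 0% to 62.5% and recovery 3 libraries from 6.06% to 94.4%. In F1 brain of control WT sires it was at 15.8% to 53.7%. It lies in a CCGG site, which MspI cuts, as do 109 of 588 member cytosines scored in any tissue. The cytosine on the other strand of the same CpG, at 57677322, was at 95.8% to 100% in the F0 group means, so the group means of its strands were far apart in every group of F0 sperm. In F1 sperm it was at 95.8% in sons of control sires (n = 3), and sons of exposed sires gave no value. The F1 sperm difference could therefore not be checked on that strand. Brain group means of the cytosine at 57677322 were 83.6% to 88.8%.

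In F1 brain, sons of CS-exposed WT sires were set against sons of control WT sires. No member region was called (0 of 25 by limma, 0.00124% of all 80920 regions), and 3 had an unadjusted p under 0.05, against 4.16% of all. The interval lay within 5 points of 0 in 22 of 25 member regions, against 52.8% of all. By level these were 16 of 16 with a mean under 5% (99.2% of all such regions) and 6 of 9 above (33.6%). The smallest p was at the Gfi1 coding region from 4271 bp (chr5:107721537-107721765, 29 cytosines), where control-sired sons ranged from 0.46% to 2.58% (median 1.88%, n = 7) and exposed-sired sons from 0.913% to 4.07% (median 2.63%, n = 7). The groups overlapped, with a difference of 1.22 ± 0.49 points (limma p = 0.0186, adjusted p = 1.00). Without CS-exposed WT sires' column 3 it was 0.999 points (limma p = 0.0524). The Cyp1a2 coding region was at 91.4% in sons of exposed and 87.9% in sons of control sires (3.47 ± 1.67 points, limma p = 0.0472, adjusted p = 1.00). The Cyp1a1 region at -1197 bp was at 1.79% and 3.30% (-1.51 points, limma p = 0.0462, adjusted p = 1.00).

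The sons of Nrf2-/- sires were also compared in brain, where facility numbers were again ordered by the sires' genotype, so that the 2 cannot be told apart. Sons of control Nrf2-/- sires against sons of control WT sires had 0 of 25 member regions called (0.0124% of all) and 4 at an unadjusted p under 0.05 (7.76% of all). These were in Gfi1 at 107723208 (1.71 points, limma p = 0.0177, adjusted p = 0.640) and 107726343 (0.84 points), the Tiparp intron (0.46 points) and the Cyp1a2 coding region (3.43 points). The first was 1.34 points without control Nrf2-/- sires' column 4 (limma p = 0.0524). Sons of CS-exposed Nrf2-/- sires had 0 of 25 called (0.0198% of all) and 2 at an unadjusted p under 0.05 (10.4% of all), the Arnt region at -135 bp at 3.61% against 1.62% (1.99 ± 0.75 points, limma p = 0.0130, adjusted p = 0.425) and Myo1g at 6517710 (-1.30 points). The Arnt difference was 1.35 points without CS-exposed Nrf2-/- sires' column 3 (limma p = 0.0433). CS-exposed against control Nrf2-/- sires had 0 of 25 called (0.00124% of all) and 0 at an unadjusted p under 0.05 (9.64% of all), with Myo1g 6511495 at the smallest p (-1.47 points, limma p = 0.149, and -0.941 without control Nrf2-/- sires' column 4). The smoke by genotype test also had 0 of 25 called (0% of all) and 0 at an unadjusted p under 0.05 (9.43% of all), with the smallest p at the Cyp1a2 coding region (-4.80 points, limma p = 0.0515, adjusted p = 0.534, and -3.43 without CS-exposed Nrf2-/- sires' column 4).

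The same comparisons were made in other ways. By the rule of size, 0 of 22 member regions passed in F0 sperm, where 2.61% of all regions passed for CS-exposed WT, 3.4%, 2.53% and 4.1% for recovery 1, 2 and 3, 5.1% for control Nrf2-/-, 4.93% for CS-exposed Nrf2-/- against control WT and 3.73% for CS-exposed against control Nrf2-/-. In brain 0 of 25 passed, where 8.33%, 7.53% and 13.6% of all regions passed for CS-exposed WT, control Nrf2-/- and CS-exposed Nrf2-/- sires against control WT sires, and 16% for CS-exposed against control Nrf2-/- sires. With all scored cytosines of a gene averaged, 0 of 9 members were called by limma in every smoke, recovery and genotype comparison. The share of all genes called was 0.00856% in recovery 3, 0.334% for control Nrf2-/-, 0.321% for CS-exposed Nrf2-/-, 0.00404% in the brain of sons of control and of CS-exposed Nrf2-/- sires, 0.0646% between those groups, 0.0363% for smoke by genotype in brain and 0% elsewhere. The unadjusted p was under 0.05 for 1 of 9 genes each in recovery 1 (Gfi1) and recovery 2 (Tiparp), against 4.67% and 3.93% of all genes. In the rest it was so for no member, against 3.32% (smoke by genotype in F0 sperm) to 17.1% (smoke by genotype in brain) of all genes. Single member cytosines gave 0 calls as well, where the largest share of all cytosines called was 0.0923%, for control Nrf2-/- F0 sperm. At an unadjusted p under 0.05 there were 3 of 222 in F1 sperm (4.11% of all cytosines) and 18 of 541 in the brain of sons of CS-exposed WT sires (3.80% of all).

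The tissues differed far more than the exposure groups did. Brain against sperm was tested in sons of control WT sires, so that generation and cross were shared, over the 28890 regions scored in both. Brain and F1 sperm columns carry different facility prefixes, so tissue and prefix cannot be told apart. Of the 16 member regions 7 were called, 6 of them higher in brain, a share below the 57.8% of all regions called (8 of 16 and 60.6% at an unadjusted p under 0.05, and 4 of 16 and 52.8% by the rule of size). Over all 28890 regions, 7666 were called lower in brain. The median difference over the members was 0.72 points, against 0.18 over all.

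The Cyp1a2 coding region led them. In sperm its libraries ranged from 3.04% to 10.4% (median 5.28%, n = 6) and in brain from 81.4% to 91.2% (median 88.9%, n = 8), with no overlap. The fitted difference was 81.5 ± 1.70 points (interval 78.1 to 85.0, limma adjusted p = 8.46e-35), and 656 of the 28890 regions (2.27%) rose at least as far. The Cyp1a2 region from 6296 bp also rose, from 44% to 81.1% (37.1 ± 4.11 points, interval 28.8 to 45.4, and 33.2 points over the libraries with all 5 cytosines). The sperm mean was 44.7% in the comparison within F1 sperm, since 2 of the 5 libraries lacked cytosines and their levels depend on the groups fitted together. In this comparison its control WT-sired sperm libraries, all at 51.4% or lower, lay below all control WT-sired brain libraries, at 72.4% or higher. At gene level 4 of 9 members were called, against 65.2% of all genes, and Cyp1a2 rose from 26.7% to 84.1% (57.4 ± 2.27 points). The main site of Cyp1a2 expression is the liver, which was not measured.

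At the Ahrr start the region rose from 0.506% in sperm to 6.05% in brain (5.54 ± 0.88 points). Its 4 sperm libraries lay between 0% and 1.43% and its 8 brain libraries between 4.11% and 8.17%, with no overlap. Ahrr also rose at gene level, from 27.4% to 34.4% (6.99 ± 1.04 points). Cyp1b1 rose by 2.66 ± 0.54 points (0.629% to 3.29%), a call lost with 6 libraries per group (0.892 points, limma adjusted p = 0.117). Gfi1 at -307 bp rose by 0.97 ± 0.39 points (0.397% to 1.36%, limma adjusted p = 0.032), a call lost in 4 alternatives (limma adjusted p from 0.0557 to 0.0721). Myo1g split: its region at 6511495 fell from 95.4% to 85.3% (-10.1 ± 1.51 points), while that at 6517905 was higher by 2.03 points (limma adjusted p = 0.047), a call lost without control WT-sired F1 sperm column 2 (0.648 points, limma adjusted p = 0.426). In the falling region the cytosine at 6511495 averaged 97.2% in F1 sperm and 66.8% in brain. Ahr at 35534842 (-0.27 points), the Tiparp intron region at 65529199 (-0.21 points) and the Ahrr region at 74256674 (-2.09 points) were not called, and a single left-out F1 sperm library took them to -0.01, 0.03 and -1.29 points.

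F1 sperm was compared with F0 sperm in control WT lines, a comparison chosen after the data were seen, since the Cyp1a2 region stood at 48.1% in F1 sperm. Generation, mother's strain and facility prefix cannot be told apart in it, and whether the CAST/EiJ sequence differs at these cytosines was not examined. Of 16 member regions 2 were called, both lower in F1, against 39.7% of all 26873 regions, of which 8287 were lower. At an unadjusted p under 0.05 the counts were 3 of 16 and 44.1%, and by the rule of size 1 of 16 and 34.4%. Cyp1a2 from 6296 bp was at 43.8% in F1 and 77.9% in F0 sperm (-34.0 ± 4.76 points, limma adjusted p = 6.33e-09, and -29.0 points over the libraries with all 5 cytosines), where F0 libraries ranged from 63.7% to 92.5% and did not overlap F1, and 199 regions (0.741%) fell at least as far. F1 brain, of the same cross, stood at 81.1% in this region. The Cyp1a2 coding region differed by 1.24 ± 1.10 points between generations and was not called (0.38 points without control WT-sired F1 sperm column 1). The other call was Myo1g 6517905 (-2.93 ± 0.93 points, limma adjusted p = 0.007), lost without control WT-sired F1 sperm column 2 (-1.55 points, limma adjusted p = 0.169). At gene level 5 of 9 members were called, against 47.7% of all genes. Cyp1a2 (-16.8 points), Arnt (-4.05), Myo1g (-3.96) and Ahrr (-1.85) were lower in F1, and Ahr was higher (1.26 points, 2.00% to 3.27%, limma adjusted p = 0.0223, with 4 of the 6 F1 libraries giving a value). The Arnt value includes the cytosine at 95477747, at 95.8% in F0 and 51.9% in F1 sperm. The Ahr value leaves out the intron cytosines from 35532468 to 35532764, which were lower in F1 sperm but not scored there. It includes those at 35504411, 35504441 and 35504548. Over all libraries they averaged 5.38%, 16.1% and 7.36% in F0 and 15.2%, 41.7% and 30.1% in F1 sperm. The direction for Ahr thus depends on which cytosines were scored. Fewer of these gene calls remained with promoters only or with the compared groups alone, as given at the end.

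Other genes of the pathway were taken from 2 lists, 13 genes that act with the AhR (chaperones, coactivators, partners and conjugating enzymes) and 10 further genes near loci reported in smokers. The AhR list had 9 genes with a region in F0 sperm (23 regions), 5 in F1 sperm (11) and 12 in brain (34), and the smoking list 9 (53), 7 (24) and 9 (63). None of these regions was called in any smoke, recovery or genotype comparison. In CS-exposed WT F0 sperm 0 of 23 and 1 of 53 had an unadjusted p under 0.05, and the medians were -0.16 and -0.45 points, against -0.15 over all regions. The highest unadjusted counts were in brain, at 6 of 34 and 10 of 63 for CS-exposed against control Nrf2-/- sires (9.64% of all regions), at 6 and 8 for CS-exposed Nrf2-/- against control WT sires (10.4%) and at 3 and 10 for smoke by genotype (9.43%). Between brain and F1 sperm, 3 of 10 regions of the AhR list were called, 0 higher in brain, and 9 of 21 of the smoking list, 2 higher, both shares below the 57.8% of all. Of all 28890 regions, 7666 were called lower in brain. With the smallest p came Rara, the retinoic acid receptor, at 98967127 (-16.0 ± 1.99 points) and at 98936721 (21.2 ± 2.76 points). Ext1, of heparan sulfate synthesis, differed by -20.8 ± 2.84 points and the Wnt co-receptor Lrp5 by -12.1 ± 2.20 points. Arnt2, the brain-enriched relative of Arnt, differed by -10.6 ± 1.98 points. Between F1 and F0 sperm, 3 of 9 and 7 of 19 regions were called, all lower in F1, against 39.7% of all regions. Of all 26873 regions there, 8287 were called lower.

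The genes most like Tiparp, Cyp1b1 and Ahrr, the 3 members with the most cytosines scored in all 13 groups (47, 37 and 25), were found by the Euclidean distance over the 13 group means among 16672 genes. Nearest to Tiparp, whose group means were 3.0% to 3.79%, were Lrrc40 (0.867), Pcmt1 (1.02) and B230219D22Rik (1.09), and 303 genes lay within 5. Cyp1b1, at 0.536% to 2.61%, was nearest to the overlapping genes Tril and Gm16499, both at 0.600, and Nkx1-1 (0.614), with 3373 genes within 5. Ahrr, at 27.6% to 34.8%, had the fewest neighbours, 24 within 5, with Grin2c (2.62), Hnrnpul2 (2.92) and Ostm1 (3.07) the nearest.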

How the data were processed

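RRBS libraries were made by the authors from DNA cut with MspI and TaqαI, and Bismark calls on mm10 were deposited as percent methylation per CpG cytosine and library, in 13 tables without read counts. The authors scored only cytosines above a read minimum in at least 4 biological replicates. Whether that minimum was applied to the deposited values, and the version of Bismark, are not given in the sources used here, and without read counts it could not be applied again, so depth per value is unknown and only the spread between libraries measures error. All 112 value columns were used. The 10 genes, the lists and the tests were chosen with earlier results of these data known. Positions were placed on GENCODE vM21 genes (mm10), cytosines with a value in at least 4 libraries per group were joined within 100 bp, and a library was kept for a region or gene where it had 50% or more of the cytosines. Region, gene and cytosine percentages were fitted with limma 3.58.1 (R 4.3.3, group means, all groups of a tissue, Benjamini-Hochberg over all features, 2-sided, threshold 0.05). The comparisons between tissues and between generations used the groups of both sides. A library stands for 1 animal, but nothing ties brain and sperm libraries to the same sons, so the comparison between tissues was unpaired. The pipeline was tested on simulated differences (Python 3.11.15, numpy 2.4.6, pandas 2.3.3, scipy 1.17.1). The text names all 10 genes, the region nearest each start, each called region or else that of smallest p, and up to 5 list genes with called regions. Alternatives were a joining distance of 300 bp, 3 or 6 libraries per group, the compared groups alone, a logit scale, strands averaged, promoters only, a size rule of 10 points, sets of consecutive facility numbers as a block and leaving out each library.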

Additional observations from a re-analysis of the deposited data

Results flagged for a closer look

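A library was singled out where its gap to the nearest other library of the group passed Dixon's 95% critical value, in groups of 4 to 10. For normally distributed values chance alone singles out about 1 in 20 groups, and levels near the floor or ceiling are not so distributed. Here 31 values in 24 libraries were singled out among 181 groups tested over 39 member regions, and 21 of the 31 lay under 20%. The count was therefore not read as an excess. Columns are named by their order in the group's table.

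In F0 sperm, control WT column 1 was the high library of its group at the Ahrr start (8.85%), at Arnt 95434532 (10%) and at Cyp1a1 -1197 bp (12.7%). It was also the highest of all 67 F0 libraries over lowly methylated cytosines, and its part in these values was not tested. The Cyp1a1 region at -329 bp had a high library in recovery 1 (column 2, 16.3%), recovery 2 (column 7, 8.95%) and CS-exposed Nrf2-/- (column 8, 11.1%). The Arnt region at -135 bp had 16.7% in CS-exposed Nrf2-/- column 1, and Arnt 95434532 had 3.85% in recovery 2 column 10.

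Other high libraries at low regions of F0 sperm were at the Ahrr start in CS-exposed WT column 2 (5.70%) and recovery 2 column 7 (1.70%), at Ahr 35534573 in CS-exposed WT column 9 (1.20%) and at Ahr 35534842 in recovery 1 column 7 (2.92%). Gfi1 at -307 bp had 3.84% in CS-exposed WT column 7, 0.817% in recovery 2 column 3 and 4.99% in CS-exposed Nrf2-/- column 8. The Tiparp start had 2.23% in control Nrf2-/- column 8 and 1.38% in recovery 2 column 10. In the Ahrr intron region recovery 1 column 3 was low, at 0%.

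At methylated regions the libraries singled out were low. For Cyp1a2 from 6247 bp these were control WT column 8 (72.9%), CS-exposed WT column 4 (73.4%) and recovery 2 column 8 (77.4%) in F0 sperm, and in brain column 6 of the control Nrf2-/- sires (78.3%) and column 3 of the CS-exposed Nrf2-/- sires (79.1%). For Myo1g 6517905 they were control WT column 7 (90.9%), recovery 1 column 7 (91.8%), recovery 3 column 9 (92.1%) and CS-exposed Nrf2-/- column 7 (90.2%), and for Myo1g 6511495 control Nrf2-/- column 7 (90.3%).

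In the sons, the Ahr start had a high library in brain (CS-exposed WT sires, column 8, 1.99%) and in sperm (CS-exposed WT sires, column 1, 3.03%). The Arnt region at -135 bp was at 2.77% in that same brain library, which also had the lowest brain mean over the imprinted starts (9.32%).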

How the results depend on the processing

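No call was made for a member region, gene or cytosine in any of the 42 smoke, recovery and genotype results, nor under any of the 465 alternatives run on them. By size alone, the Cyp1a2 region passed in F1 sperm at 5 points but not at 10 (0 regions). Between brain and F1 sperm the 7 called regions became 1 of 5 tested with 6 libraries per group, where fewer regions could be tested, and 5 to 8 when each library was left out in turn (5 without F1 sperm column 6 or F1 brain column 7). The Cyp1a2 coding region stayed at 80.9 to 82.5 points and Cyp1a2 from 6296 bp at 34.9 to 38.9 when a library was left out, while Cyp1b1 was not called with 6 libraries (0.892 points, limma adjusted p = 0.117), Gfi1 at -307 bp in 4 alternatives and Myo1g 6517905 in 13. Between F1 and F0 sperm the 2 called regions became 1 of 5 with 6 libraries, 5 of 17 when joined at 300 bp, 1 with the 2 groups alone, 1 with strands averaged, and 1 to 3 when a library was left out (1 without F1 sperm column 2). The 4 genes called between tissues (65.2% of all genes were) became 2 of 5 with promoters only, and the 5 between generations (47.7% of all) 0 of 5 with promoters only and 2 with the 2 groups alone. The causes were not tested. The called regions kept their direction under every alternative run on them. They were called for lying far from 0, so this is no separate result. Over all member differences by region, called or not, 119 of the 317 in the smoke, recovery and genotype comparisons turned direction when some single library was left out. Between tissues and between generations 5 of the 32 did. The comparison between generations and all its alternatives, and the gene-level results between tissues, were added after the data were seen. The columns carry no replicate number. Consecutive facility numbers form 10 sets of at most 1 library per group in WT F0 sperm (48 libraries) and 8 sets of 2 exposed and 2 control libraries in brain, and a block on these sets, chosen after the data were seen, called 0 member regions and 0 member genes in its 7 comparisons (lowest limma adjusted p 0.402 and 0.337). The deviations of libraries of a set correlated at a median of -0.00218 in sperm and 0.0553 in brain, over 0.1 in 5 of 92 and 9 of 32 pairs, and 3 of 48 and 17 of 32 libraries correlated best with their own set. Over all genes the block took the calls between CS-exposed and control Nrf2-/- sires from 16 to 105, for smoke by genotype in brain from 9 to 150 and in recovery 3 from 2 to 0. Over all regions it took them from 4 to 2 in recovery 2, 27 to 22 in recovery 3, 1 to 0 for CS-exposed WT sires in brain and 1 to 5 for CS-exposed against control Nrf2-/- sires. Nrf2-/- F0 sperm and F1 sperm form no such sets.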
